A study of Mus musculus with 2 samples.

Results

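The genes described here encode 9 proteins stored in the granules of neutrophils, 4 of the primary (azurophilic) granule, Mpo, Elane, Prtn3 and Ctsg, and 5 of the secondary (specific) granule, Ltf, Camp, Ngp, Lcn2 and Chil3. They were chosen by name, and all 9 were matched by symbol among 32285 genes. Their RNA was counted in single cells isolated from bone of female BALB/c mice. The cells were taken 4 weeks after ovariectomy (OVX), which removes the ovarian source of estrogen, or after sham surgery. Periosteum was removed from femurs and vertebrae, and the marrow cavity of the femurs was washed out. No such wash is described for the vertebrae. The bone pieces were then digested. The released cells were sorted on CD11b, F4/80 and CD68 as osteal macrophages (Omacs), the resident macrophages that line bone. Cells of each condition were pooled over mice, tagged with an antibody hashtag (hashtag 1 for OVX, hashtag 2 for sham) and run together as 1 library, so there was 1 pool per condition and no replicate. Accordingly no test between OVX and sham was possible. Every interval below is a 95% interval that covers counting error only, and it is exact except at equal stage mix, where it is approximate.

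Neutrophils build their granules in sequence while they mature in bone marrow. Promyelocytes, the early cycling precursors, transcribe the primary granule enzymes, and the secondary granule genes come on in the myelocyte and metamyelocyte that follow. Transcription of both sets largely ends before the segmented neutrophil leaves the marrow. In maturing neutrophils, granule transcripts therefore follow the stage of a cell more than its protein content. The factor PU.1 is known to act on primary granule genes, and C/EBPε, encoded by Cebpe, is needed for secondary granule genes.

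The library held 17681092 unique molecular identifiers (UMIs, 1 per captured RNA molecule) over 2349 barcodes, with a median of 4387 per barcode. The hashtags assigned 1059 barcodes to OVX (median 4812 UMIs) and 981 to sham (median 3704 UMIs), 78 carried both tags and 231 carried neither. The recorded numbers of cells loaded were 1037 for OVX and 1084 for sham. More OVX barcodes were thus called than OVX cells were recorded as loaded, and the cause was not tested. Although the sort was for macrophages, most defining macrophage markers were nearly absent, with 1 UMI each of C1qa and C1qb, 0 of C1qc and Cd163, 4 of Siglec1, 16 of Mrc1, 85 of Mertk and 92 of Adgre1 (the gene for F4/80, in 47 barcodes). Csf1r had 200 UMIs in 128 barcodes, and Cd68, which encodes a marker of the sort, had 942 UMIs in 543. The neutrophil marker S100a8 had 1260287 UMIs in 2316 barcodes and Ly6g had 12151 UMIs in 1640. Clusters were therefore named by leading genes. A clustering that left out the 9 granule genes gave 6 of them: Mki67 and Top2a (287 barcodes, cycling), Retnla and Stfa2 (521), Acod1 and Jaml (1234), Gm10800 and mt-Nd4l (35, median 929 UMIs, unnamed by type), Arg1 and Pf4 (62), and a stromal-like cluster led by Prg4 that also held Dcn (210). The clusters other than the stromal-like and Arg1 ones are called neutrophil-type below and held 2077 barcodes, of which 79 had under 1% of their UMIs in S100a8 and S100a9, against a median of 21.01%. These 79 included 22 barcodes of the cycling cluster, whose leading genes also held Cd74 and H2-Ab1, and 22 of the 35 Gm10800 barcodes. The neutrophil marker list was at 10625 CPM in the Gm10800 cluster, below the 27021 of the Arg1 cluster that was set apart, so the neutrophil-type set is defined by exclusion and the summed secondary level is also given without barcodes under the 1% line.

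The primary granule genes were close to absent. Prtn3, the serine protease proteinase 3, had 132 UMIs in 20 barcodes, Elane, the serine protease neutrophil elastase, had 57 UMIs in 6 barcodes, Mpo, the peroxidase that makes hypochlorous acid, had 10 UMIs in 5 barcodes, and Ctsg, the serine protease cathepsin G, had 9 UMIs in 2 barcodes. The 208 primary UMIs lay in 25 barcodes, and 1 sham barcode of the cycling cluster held 144 of them (69.2%). That barcode had 50 UMIs of Elane, 81 of Prtn3, 6 of Mpo and 7 of Ctsg, together with 62 of the early myeloid gene Ms4a3, 67 of Lcn2, 57 of Chil3, 8 of Camp, 5 of Ngp and 0 of Ltf, among 53885 UMIs in all. Whether it was a doublet was not tested. It was the only barcode with all 4 primary genes, and just 6 barcodes had 2 or more. The barcode with the next most Prtn3, also from sham, had 16 UMIs of it but 0.126% of its UMIs in S100a8 and S100a9. Of the 25 barcodes, 17 lay in the cycling cluster, 7 lay under the 1% S100 line, and 25 also had at least 1 secondary granule UMI.

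The secondary granule genes were abundant. Ngp, the neutrophilic granule protein of the cathelin family, had 79429 UMIs, or 4492 CPM (its UMIs in every 1e+06 UMIs counted), in 1405 barcodes (59.8%). Lcn2, the lipocalin that binds bacterial siderophores, had 42448 UMIs (2401 CPM) in 1679 barcodes (71.5%). Camp, the precursor of the cathelicidin antimicrobial peptide, had 16091 UMIs (910 CPM) in 618 barcodes, and Ltf, the iron-binding lactoferrin, had 12307 UMIs (696 CPM) in 694 barcodes. Chil3, the chitinase-like protein Ym1, was lowest with 1185 UMIs (67.0 CPM) in 343 barcodes. Since 3′ libraries count 1 tag per molecule, these levels carry no length correction. The value for Chil3 is uncertain because its close copy Chil4 was listed at 0 UMIs, and reads matching both genes could have been dropped in counting. All 5 genes were seen together in 195 barcodes and none of them in 435, and they made up 14.6% of all UMIs in the barcode where their share was highest.

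The 9 genes are spread over 6 chromosomes, with a pair of neighborhoods among them (GRCm38 coordinates). Prtn3 (chr10:79874476-79883174, plus strand) and Elane (chr10:79886247-79888215, plus strand) lie side by side. Camp (chr9:109847379-109849617, minus strand), Ngp (chr9:110419747-110423012, plus strand) and Ltf (chr9:111019271-111042767, plus strand) lie within 1.195 Mb. The others are Mpo (chr11:87793581-87804413, plus strand), Ctsg (chr14:56099881-56102574, minus strand), Lcn2 (chr2:32384633-32388252, minus strand) and Chil3 (chr3:106147554-106167564, minus strand). The 250 bases before each RefSeq start (GRCm38.p6, found for 9 of 9) were searched on both strands for a PU.1 motif, GAGGAAGT, and a C/EBP motif, TTNNGCAA. The PU.1 letters were found before Mpo, Elane and Prtn3, which is 3 of the 4 primary genes and 0 of the 5 secondary genes, while 2.44% of all 32851 promoters held them. The C/EBP letters were found before Ltf, Ngp and Lcn2, which is 3 of the 5 secondary genes and 0 of the 4 primary genes, while 9.56% of all promoters held them. No window held both motifs. A match is a string of letters and not a bound site, and no binding was measured. The stretches shown are the parts of the primary gene windows that hold the PU.1 letters (in capitals) and that no annotated exon covers; those of Mpo and Elane lie upstream of the gene, and that of Prtn3 lies in an intron of its longer transcript.
Mpo, chr11:87793534-87793580, plus strand: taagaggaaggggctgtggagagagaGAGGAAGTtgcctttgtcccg
Elane, chr10:79886062-79886246, plus strand: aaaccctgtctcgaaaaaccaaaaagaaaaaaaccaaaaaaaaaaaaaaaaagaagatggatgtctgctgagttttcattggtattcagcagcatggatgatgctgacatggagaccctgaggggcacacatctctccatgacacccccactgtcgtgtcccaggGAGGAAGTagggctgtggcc
Prtn3, chr10:79879417-79879613, plus strand: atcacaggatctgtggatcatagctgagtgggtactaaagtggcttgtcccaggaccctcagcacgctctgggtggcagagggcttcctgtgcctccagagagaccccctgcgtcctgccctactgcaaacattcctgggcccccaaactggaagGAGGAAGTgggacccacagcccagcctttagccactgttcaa

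The corresponding stretches of the secondary genes, both upstream of the gene, hold the C/EBP letters in capitals. The Lcn2 match (chr2:32387948-32387955) and another Ngp match (chr9:110419797-110419804) fall in annotated exons and are not shown.
Ltf, chr9:111019042-111019270, plus strand: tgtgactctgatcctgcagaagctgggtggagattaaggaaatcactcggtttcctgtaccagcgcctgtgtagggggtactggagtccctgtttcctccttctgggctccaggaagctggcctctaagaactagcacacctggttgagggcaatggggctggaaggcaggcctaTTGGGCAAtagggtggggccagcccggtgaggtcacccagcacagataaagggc
Ngp, chr9:110419558-110419746, plus strand: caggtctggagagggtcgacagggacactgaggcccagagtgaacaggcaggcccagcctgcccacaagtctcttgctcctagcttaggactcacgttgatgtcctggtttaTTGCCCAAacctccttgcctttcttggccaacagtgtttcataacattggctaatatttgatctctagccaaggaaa

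Next, the order of the 9 genes along maturation was measured. The 2077 neutrophil-type barcodes were ordered by diffusion pseudotime, which sorts cells by how far they lie along a graph of similar profiles, starting at the barcode richest in Mki67 and Top2a. None of the 9 genes entered the graph. Positions on this order run from 0 to 100. The mean position of a gene was weighted by its UMIs, each barcode first being scaled to the same total. It was 8.11 for Top2a and 10.7 for Mki67, whose early place was set by the choice of root. Of genes that did not set the root, it was 16.7 for Cebpe, against 54.1 for Mmp8 and 59.4 for Cxcr2, the chemokine receptor of mature neutrophils. Mmp8 encodes a collagenase and is among the other secondary granule genes listed below, yet it lay after each of the secondary genes chosen here. Depth fell along the order, from a median of 8868 UMIs in the first of 10 equal bins to 2146 in the last, and the S100-low barcodes lay mostly at its ends, with 21 in bin 1 and 37 in bin 10.

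Among the secondary genes, Camp came first, with a mean position of 12.1, followed by Ltf at 13.9, Ngp at 18.4, Chil3 at 20.01 and Lcn2 at 26.8. Of the primary genes, Ctsg had a mean of 0.839, Prtn3 of 2.45 and Elane of 4.78, but these values rested largely on the single rich barcode at position 0.506. Mpo, on 10 UMIs, was at 23.5, after 4 of the 5 secondary genes. With UMIs summed without scaling each barcode, Mpo was at 8.40, before Camp at 9.05, the first of the secondary genes there. The place of the primary genes was not stable. When sham barcodes, which hold nearly all primary UMIs, were ordered alone, Mpo was at 16.2, Elane at 17.2, Prtn3 at 19.01 and Ctsg at 23.2, each after Camp (11.4) and Ltf (14.1). When OVX barcodes were ordered alone, Elane was at 11.7, after Camp at 10.2, and Prtn3 was at 6.88. Summed over both conditions, the primary genes had a mean position of 4.93 (201 UMIs) and the secondary genes 19.6 (140951 UMIs). In 10 of 13 other settings all 10 pairs of secondary genes kept their order, and in 2 settings 9 of 10 did. With barcodes thinned to 1000 UMIs only 4 of 10 pairs kept it, and 10 of 10 did when the root cell was taken from the unthinned counts. That setting and the one limited to barcodes at 1% S100 or more are among the 10 settings above. Both were added after the data were seen.

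The secondary genes also differed in how steeply they declined. Camp went from 4239 CPM in bin 1 to 462 in bin 3 and 29.4 in bin 10, and Ltf from 3530 to 527 and 20.98. Ngp was as high in bin 2 (15220) as in bin 1 (14981) and reached 8625 in bin 3, 1624 in bin 5 and 252 in bin 10. Lcn2 declined least, from 4905 in bin 1 and 5793 in bin 2 to 1650 in bin 5 and 298 in bin 10. Chil3 went from 254 in bin 1 to 2.10, or 1 UMI, in bin 10. Thus Camp and Ltf had dropped to low levels while Ngp and Lcn2 were still abundant, and the ratio of Camp to Ngp UMIs was 0.283 in bin 1, 0.130 in bin 2, 0.0536 in bin 3 and 0.0313 in bin 6, and 0.117 in bin 10, where counts were low. The ratio of Lcn2 to Ngp went from 0.327 in bin 1 to 2.83 in bin 8 and was 1.18 in bin 10. Together the 5 genes made up 2.79% of UMIs in bin 1 and 0.0602% in bin 10. Prtn3 had 53.3 CPM in bin 1 and Elane 23.2, and neither was found in bin 10, where 0 UMIs allow up to 7.74 CPM.

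The decline was also seen at equal depth. With each barcode thinned to 1000 UMIs, Ngp was detected in 89.4% of bin 1 barcodes (interval 84.2 to 93.3%) and 11.2% of bin 10 barcodes (6.96 to 16.7%). The stromal-like barcodes were at 7.07% (3.92 to 11.6%), and this interval overlapped that of bin 10. They were deeper and lost a larger share of their UMIs in thinning, so the overlap does not measure background RNA. The part of background RNA in bin 10 was not tested. Ltf was detected in 66.7% and 2.23% of thinned barcodes in bins 1 and 10, Camp in 66.7% and 1.12%, and Lcn2 in 87.4% and 15.1%. The stromal-like barcodes were at 1.01% for Ltf, 10.1% for Camp and 45.0% for Lcn2. Unthinned, Ngp was found in 93.8% of bin 1, 28.8% of bin 10 and 59.5% of stromal-like barcodes, at median depths of 8868, 2146 and 19997 UMIs.

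**Figure D1:**
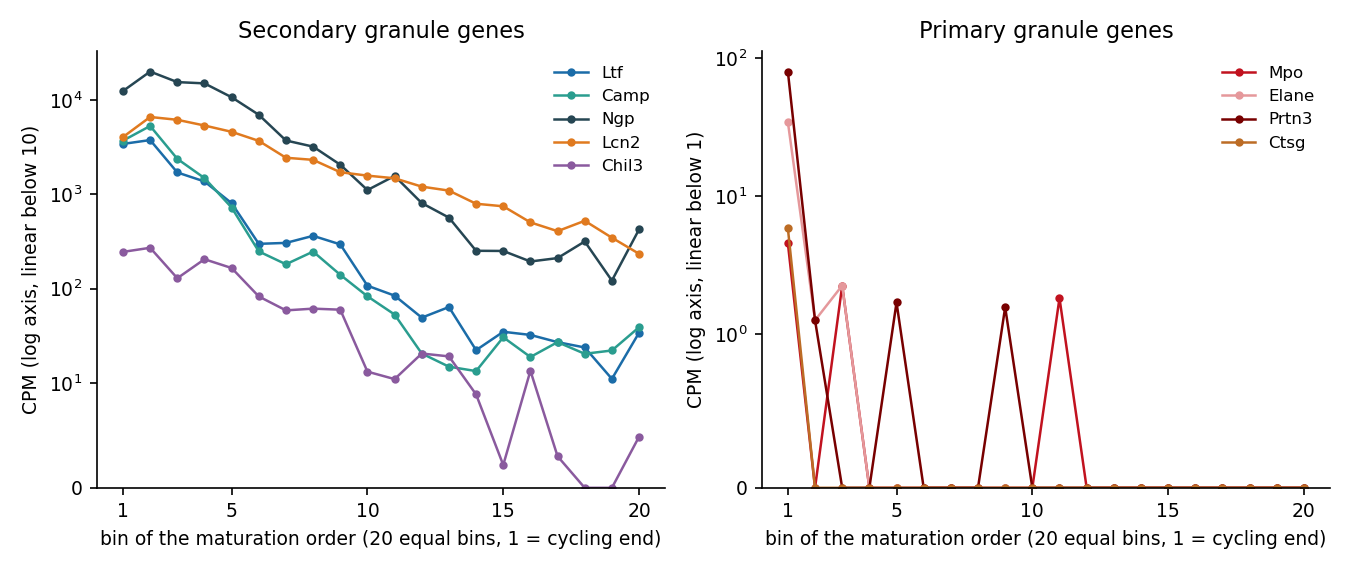
CPM of the 5 secondary (left) and 4 primary (right) granule genes in 20 equal bins of the maturation order, bin 1 being the cycling end; the y axes are logarithmic above the stated value and linear below it, and each point is the summed count of 1 bin over all barcodes. Camp and Ltf decline first, Ngp and Lcn2 later, and the primary genes are found almost only in the first bin.

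By cluster, the 5 secondary genes were highest in the cycling Mki67 and Top2a cluster, with 16029 CPM of Ngp, 5787 of Lcn2, 3901 of Camp, 2981 of Ltf and 236 of Chil3. The Arg1 and Pf4 cluster was low in all 5, with 157 of Ngp and 195 of Lcn2, and 53 of its 91 Ngp UMIs were in 1 barcode.

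The stromal-like cluster departed from the neutrophil pattern. It had 1460 CPM of Lcn2 (1428 to 1492) and 354 of Camp (338 to 370), but 51.5 of Ngp, 11.9 of Ltf and 1.10 of Chil3, and 0 primary UMIs in 210 barcodes. Its ratio of Camp to Ngp UMIs was 6.87, against 0.179 in neutrophil-type barcodes, and its ratio of Lcn2 to Ngp was 28.3, against 0.434. Over the 10 bins of neutrophil-type barcodes the first ratio ran from 0.0313 to 0.283 and the second from 0.327 to 2.83. The part of RNA from other cells in these levels was not tested. The Camp signal was uneven: 4 barcodes held 50% of the 1937 stromal Camp UMIs, and 67 of 210 had any. The richest, from OVX, had 556 UMIs of Camp, 840 of Lcn2, 1 of Ngp and 806 of the fibroblast proteoglycan gene Dcn, with 31 of S100a8, among 60718 UMIs.

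**Figure D2:**
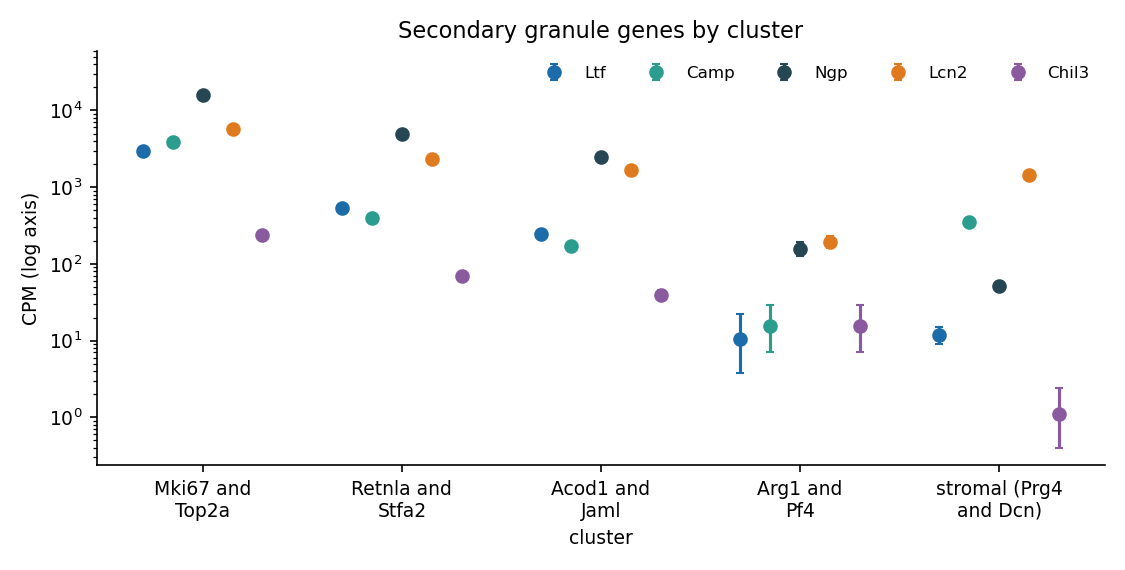
CPM (log axis) of the 5 secondary granule genes in 5 clusters, the 35 low-depth barcodes being left out; points are summed counts over all barcodes of a cluster and bars are exact 95% counting intervals, often smaller than the point. Ngp is the highest of the 5 genes in the cycling cluster at 16029, whereas in the stromal-like cluster Lcn2 (1460) and Camp (354) exceed Ngp (51.5).

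OVX and sham were then set side by side. Over all assigned barcodes the primary genes had 16 UMIs in OVX and 192 in sham, in 8 and 17 barcodes, a ratio of CPM of 0.0691 (0.0387 to 0.115). Without the top barcode of each condition the ratio was 0.172, and the level fell in sham from 29.7 to 7.49 CPM. Elane had 2 UMIs in OVX and 55 in sham, Prtn3 12 and 120, Mpo 2 and 8, and Ctsg 0 and 9.

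Each secondary gene was lower in OVX than in sham over all barcodes. Ltf had 600 CPM in OVX and 974 in sham, a ratio of 0.616 (0.593 to 0.640). Chil3 had 59.2 and 93.6 (ratio 0.633), Camp 785 and 1116 (0.704), and Ngp 4143 and 5839 (0.710). Lcn2 differed least, with 2370 and 2712 (0.874). The summed level was 7957 in OVX and 10734 in sham, a ratio of 0.741 (0.733 to 0.749). Of the 9 members, 4 reached 100 CPM in at least 1 condition here and these 4 were lower in OVX, where 60.2% of 1456 such genes were lower. Past 1.5-fold, 1 member (Ltf) was lower, where 16.3% of all genes were, and 0 were higher, where 6.04% were.

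Among neutrophil-type barcodes (1005 OVX, 886 sham) the gap was wider. Ltf had 735 CPM in OVX and 1402 in sham (ratio 0.524, 0.504 to 0.544), Camp 821 and 1566 (0.524), Chil3 71.8 and 134 (0.536), Ngp 5089 and 8394 (0.606) and Lcn2 2377 and 3560 (0.668). Of the 5 members that reached 100 CPM, 5 were lower in OVX, against 59.5% of 1300 genes, and 4 were lower by over 1.5-fold, against 11.9%, and 0 higher by as much, against 6.38%. Their median log2 ratio was -0.90 and that of all genes compared was -0.08. Without barcodes under the 1% S100 line the summed ratio was 0.586, against 0.604 with them. The stromal-like cells supplied 15.1% of OVX Camp UMIs but 2.68% of those in sham, and 18.3% and 8.68% of those of Lcn2.

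The summed level was not lower in OVX in the cycling cluster taken as a whole. That cluster included 22 barcodes under the 1% S100 line. The ratio without them was not calculated, so the side of 1 on which it would lie is not known. In the Mki67 and Top2a cluster (98 OVX and 147 sham barcodes) the ratio of OVX to sham was 1.09 for Ltf, 1.13 for Camp, 1.05 for Ngp, 0.932 for Lcn2 and 0.799 for Chil3, and 1.04 for the sum (1.02 to 1.05). Of the 5 members compared there 2 were lower in OVX, against 71.1% of 1252 genes, 0 were lower by over 1.5-fold, against 11.6%, and 0 were higher by as much, against 3.83%. The Acod1 and Jaml cluster (479 and 653 barcodes) had a summed level of 2900 CPM in OVX and 5548 in sham (ratio 0.523), and Ltf was at 102 and 320. The Retnla and Stfa2 cluster had 6732 and 18264 (ratio 0.369), but that cluster was mostly OVX, with 415 barcodes against 77.

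**Figure D3:**
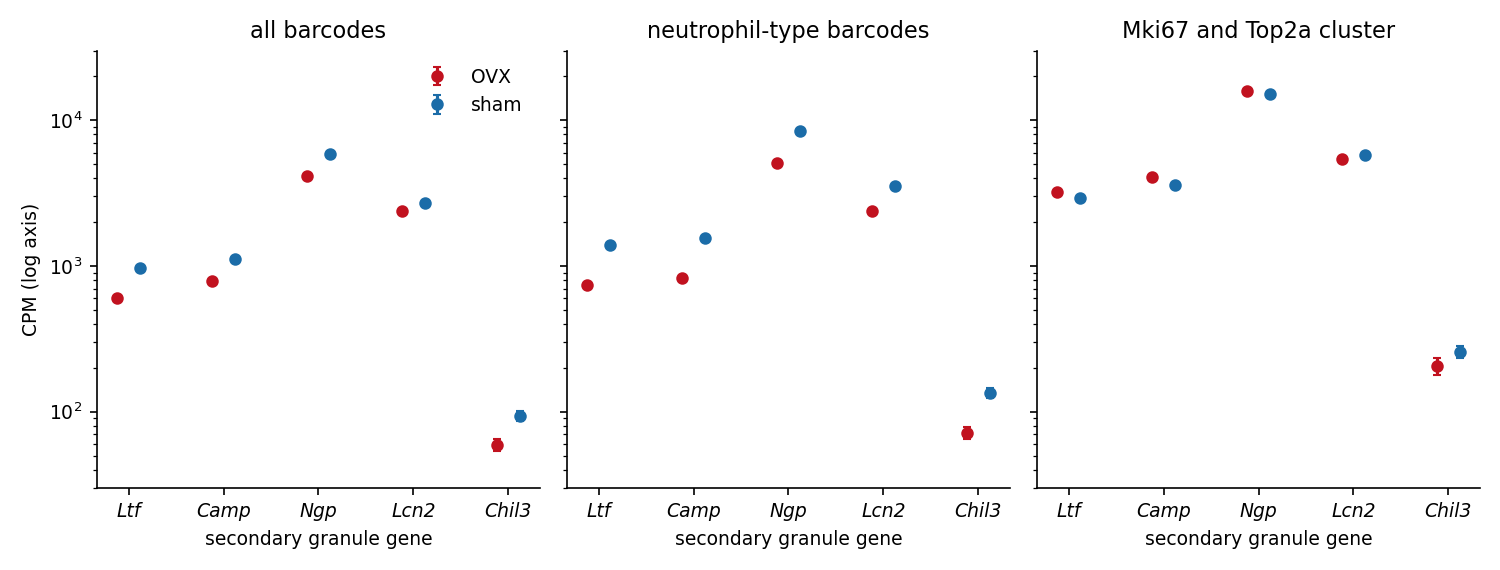
CPM (log axis) of the secondary granule genes in OVX (red) and sham (blue) over all barcodes, neutrophil-type barcodes and the cycling cluster; each point is 1 pool of mice and bars are exact 95% counting intervals, mostly smaller than the point. All 5 genes are lower in OVX in the left and middle panels, while in the cycling cluster Ltf, Camp and Ngp are slightly higher and Lcn2 and Chil3 lower.

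The place of the difference on the maturation order was examined bin by bin. In bin 1 the summed ratio was 1.10 (1.08 to 1.12), with 3499 CPM of Ltf in OVX and 3389 in sham, and 15652 and 13712 of Ngp, whereas Chil3 was lower in OVX, at 191 and 283 (ratio 0.673, 0.558 to 0.810). These values include the 21 S100-low barcodes of bin 1, and the ratio without them was not calculated. In bins 2 and 3 the summed ratio was 0.679 and 0.527, and in bin 4 0.558. In bins 5 to 10 it lay between 0.674 (bin 7) and 0.994 (bin 10). Bins 2 to 4 were then grouped, a choice made after the values were seen. They held 305 OVX and 252 sham barcodes at median depths of 5913 and 5572 UMIs. Over these bins the ratio was 0.391 for Ltf, 0.463 for Camp, 0.548 for Ngp, 0.523 for Lcn2 and 0.674 for Chil3. Without the 5 richest barcodes of each condition these ratios were 0.308, 0.338, 0.534, 0.540 and 0.597. With barcodes of these bins thinned to equal depth, Ltf was detected in 21.2% of OVX (16.6 to 26.3%) and 34.3% of sham (28.2 to 40.9%). Camp was detected in 15.02% of OVX (11.1 to 19.6%) and 31.3% of sham (25.4 to 37.7%). For Ltf and Camp the intervals of OVX and sham did not overlap. Those of Ngp (76.1% and 83.5%), Lcn2 (73.7% and 81.3%) and Chil3 (6.48% and 8.70%) overlapped. Camp in bin 3 had the lowest ratio of any bin, at 122 CPM in OVX and 995 in sham (0.123). There 176 of the 442 sham UMIs were in 1 barcode, and 25 of the 94 OVX UMIs were in 1 barcode.

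In the later bins the summed counts of Ngp and Lcn2 gave ratios on opposite sides of 1. Ngp was lower in OVX in 9 of 10 bins with an interval below 1 in each of these 9, whereas Lcn2 was lower in 4 and higher in 6. Bins 7 to 10 were also grouped after the values were seen. In them Ngp had 182 CPM in OVX and 455 in sham (ratio 0.399, 0.344 to 0.462) and Lcn2 had 693 and 572 (1.21, 1.09 to 1.34). Without the 5 richest barcodes of each condition the ratios were 0.559 and 1.43. At 1000 UMIs per barcode, Ngp was detected in 10.997% of OVX (8.07 to 14.5%) and 14.3% of sham (10.6 to 18.7%) barcodes of these bins. These intervals overlapped each other and that of the stromal-like barcodes, which were deeper and lost a larger share of their UMIs in thinning. Lcn2 was detected in 28.4% of OVX (23.97 to 33.1%) and 27.7% of sham (22.8 to 33.01%) barcodes, so neither gene was told apart between conditions at this equal depth in these bins, and Lcn2 was below the 45.0% of stromal-like barcodes. Ltf rested on few barcodes in bins 5 and 7. Its ratio was 2.40 in bin 5 (173 against 38 UMIs, 58 of the OVX UMIs in 1 barcode). In bin 7 it was 0.160 (8 against 29 UMIs, 21 of the sham UMIs in 1 barcode). Over bins 7 to 10 the Ltf ratio was 0.368 (0.234 to 0.572), and 0.811 without the 5 richest barcodes of each condition.

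**Figure D4:**
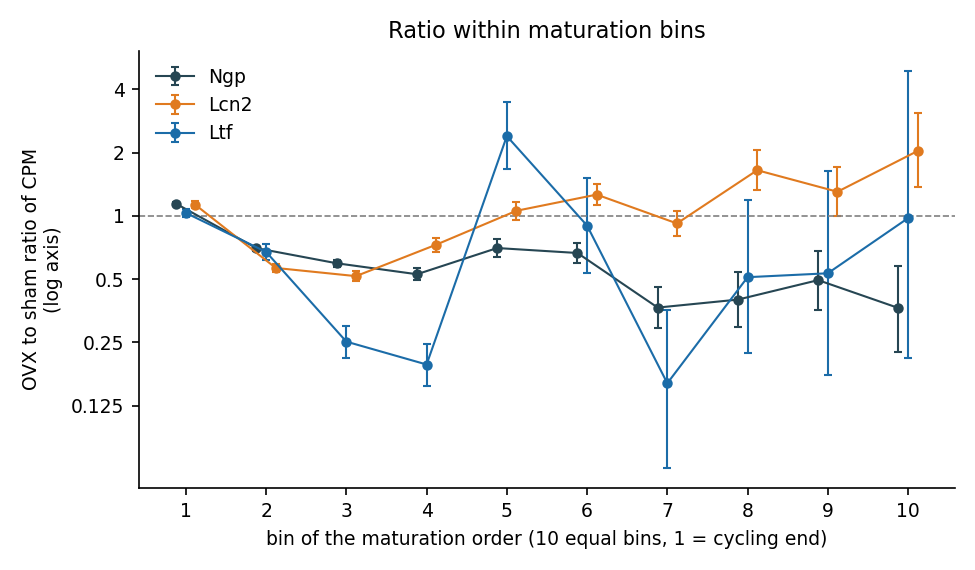
Ratio of OVX to sham CPM (log axis) of Ngp, Lcn2 and Ltf in 10 equal bins of the maturation order; points are 1 pool per condition, bars are exact 95% counting intervals and the dashed line marks a ratio of 1. Ngp lies below 1 from bin 2 to bin 10, Lcn2 lies below 1 in bins 2 to 4 and 7 and above it in the others, and Ltf scatters where its counts are low.

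The stages also supplied different shares of UMIs in OVX and sham, although their shares of barcodes had overlapping intervals in every bin. The clusters were less alike in barcodes. Of the 1005 OVX and 886 sham neutrophil-type barcodes, the cycling cluster held 98 and 147. The Retnla and Stfa2 cluster held 415 and 77, and the Acod1 and Jaml cluster 479 and 653. Intervals for these cluster shares were not calculated. Bin 1 held 8.96% of OVX neutrophil-type barcodes (7.26 to 10.9%) and 10.9% of sham (8.97 to 13.2%), and the intervals overlapped. It held 14.5% of OVX UMIs but 27.4% of sham UMIs. Sham barcodes of bin 1 had a median of 10206 UMIs and OVX barcodes of bin 1 had 8252, whereas OVX barcodes were the deeper in 8 of the 9 later bins. With the bins of OVX weighted to the sham share of UMIs, the secondary level was 13000 CPM in OVX and 15057 in sham, a ratio of 0.863 (0.854 to 0.873), against 0.604 unweighted. These weights follow depth per barcode as well as the number of barcodes. With equal weight per barcode the ratio at equal stage mix was 0.744. Weighted by UMIs, it was 0.872 for Ltf, 0.899 for Camp, 0.872 for Ngp, 0.829 for Lcn2 and 0.729 for Chil3. At 1000 UMIs per barcode, over all barcodes, the ratio of the summed level was 0.694, against 0.741 unthinned. With equal weight per barcode and no thinning it was 0.697. Thinning also gives each barcode equal weight, so the effect of depth alone was not tested. In shares of thinned barcodes, Camp was detected in 12.02% of OVX (10.02 to 14.2%) and 18.98% of sham (16.3 to 21.9%) neutrophil-type barcodes. Ltf was detected in 14.9% (12.7 to 17.4%) and 19.98% (17.3 to 22.9%), and these intervals just overlapped. Those of Ngp (42.2% and 46.8%), Lcn2 (53.9% and 56.1%) and Chil3 (3.34% and 5.49%) also overlapped.

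In the stromal-like cluster Camp, Lcn2 and Ltf had more summed CPM in OVX than in sham. Camp had 714 CPM in 38 OVX barcodes and 120 in 54 sham barcodes, and 298 and 39.6 without the top barcode of each. Lcn2 had 2612 and 950, and 2059 and 820 without the top barcodes. Ltf had 24 and 12 UMIs (ratio 2.48, 1.19 to 5.44). At 1000 UMIs per barcode the shares overlapped, with Camp detected in 13.2% of OVX (4.41 to 28.1%) and 5.56% of sham (1.16 to 15.4%) barcodes and Lcn2 in 50% (33.4 to 66.6%) and 42.6% (29.2 to 56.8%). Ngp in the same barcodes was 52.5 in OVX and 46.8 in sham, with overlapping intervals. A further 112 stromal-like barcodes carried no hashtag call, so these values rest on fewer than all the cells of the cluster.

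Other genes of the granule program were taken from 4 lists. Of 12 other primary granule and early genes, 4 reached 100 CPM in a bin: Serpinb1a, a serpin that inhibits neutrophil serine proteases, was highest in bin 2, and Lyz2 (lysozyme), Ctsc (the protease that activates granule serine proteases) and Srgn (the granule proteoglycan serglycin) were highest in bins 9 and 10. In neutrophil-type barcodes Lyz2 was lower in OVX (497 against 1023 CPM, ratio 0.486), Serpinb1a was lower (291 against 441, 0.661), Ctsc was higher (152 against 95.6, 1.59) and Srgn was at 4608 and 4499 (1.02). Thus 2 of 4 were lower by over 1.5-fold, against 11.9% of all genes, and 1 higher, against 6.38%. Ms4a3, below that level, peaked in bin 1 at 71.8 and was at 7.42 in OVX and 25.02 in sham. Of its 183 UMIs in neutrophil-type barcodes, 62 were in the sham barcode richest in primary UMIs. The levels of Ms4a3 without that barcode were not calculated. Of 12 other secondary granule genes, 10 reached 100 CPM in a bin, 5 of them highest in bin 1 or 2, 4 in bins 3 to 8 and 1 in bin 9 or 10. Cd177 (highest in bin 2) and the integrin subunit gene Itgam (bin 7) had ratios of 1.22 and 0.909, Mmp8 (bin 5) 1.34 and Cyba (bin 2), a subunit of the NADPH oxidase, 0.937. In neutrophil-type barcodes 9 of these 12 reached 100 CPM in at least 1 condition, with 2 lower in OVX by over 1.5-fold (Olfm4, Cybb), against 11.9% of all genes, and 2 higher (Slpi, Hp), against 6.38%, and their median log2 ratio was -0.09.

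Of the tertiary granule and secretory vesicle list (8 genes, 6 at 100 CPM in a bin), 4 were highest in bin 9 or 10. Mmp9 was highest in bin 7 and Mmp25 in bin 2. In the other primary list 3 of 4 genes at that level were also highest in bin 9 or 10, as were 3 of 5 regulators. The share over all genes was not calculated. Mmp9, gelatinase B, had 1930 CPM in OVX and 1422 in sham (1.36), Cd14 1018 and 892 (1.14), Fpr2 746 and 578 (1.29) and Adam8 323 and 387 (0.833). Past 1.5-fold, 1 was lower in OVX (Mmp25), where 11.9% of all genes were, and 1 higher (Fpr1), where 6.38% were. Of 10 regulators of granule genes, Cebpe was highest at the cycling end, at 108 CPM in bin 1, 65.5 in bin 2 and 0 in bin 10. It was at 25.1 in OVX and 46.5 in sham neutrophil-type barcodes (0.540, 0.437 to 0.667). Bin 1 supplied 14.5% of the OVX UMIs and 27.4% of the sham UMIs of these barcodes. The Cebpe ratio at equal stage mix was not calculated. Spi1, which encodes PU.1, was at 326 and 276 (1.18), Cebpb at 1473 and 1234 (1.19), Cebpd at 132 and 129 (1.02) and Runx1 at 178 and 122 (1.47), and Gfi1 had 6 UMIs in all. Ms4a3, Cebpe and Gfi1 are given here after their values were seen.

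Over 20 bins, the genes whose profile was most like the secondary sum among 2185 genes were Lamtor4 (Pearson r = 0.977 across bins), Padi4, the enzyme that citrullinates histones in neutrophils (0.971), Ifitm6 (0.965), Krt83 (0.958) and Sh3bgrl (0.957). The 5 most like the primary sum were Ccl17, H2-Ab1, Pa2g4, H2-Aa and H2-Eb1 (0.948 to 0.976). Ccl17 encodes a chemokine and the H2 genes encode MHC class II chains, which antigen-presenting cells make. The primary sum lay almost wholly in the first of the 20 bins (Prtn3 at 80.2 CPM there and 1.27 in the next). Of its 201 UMIs, 144 were in 1 barcode, which had 11.1% of its UMIs in S100a8 and S100a9. Its r values therefore pick out genes confined to that bin, and which cells made the primary RNA was not tested. Beside that, 28 of the 194 primary UMIs of bin 1 were in barcodes under the 1% S100 line. Bins share the library and the fall of depth along the order, so all these r values are descriptions.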

How the data were processed

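Cells of OVX and sham mice were hashed, pooled and sequenced as 1 Chromium 3′ v3.1 library. The authors counted reads per gene and barcode against mm10 with Cell Ranger (6.0.1 per the labels, 6.0.0 in the file header) and deposited raw UMI counts with the counts of 2 hashtags over 2349 barcodes (500 to 141565 UMIs each). A second library, of hashtags alone, was not analysed here. Barcodes were assigned with HTODemux (Seurat 5.3.0, R 4.3.3, quantile 0.99), and barcodes with both tags were left out of comparisons. Doublets within a condition were not removed. Clusters (Louvain, resolution 0.3) and pseudotime (10 diffusion components, 15 neighbors, 30 principal components, 2000 variable genes without the 9 members) were made with scanpy 1.11.5 on counts scaled to 10000 per barcode. Barcodes under 1000 UMIs (171) were left out of thinned values. Levels are summed CPM over a group of barcodes, with exact Poisson, Clopper-Pearson or conditional ratio intervals. The interval at equal stage mix is a normal approximation for the log ratio (delta method on Poisson counts). With 1 pool per condition, no gene was tested, and genes were compared by a 1.5-fold ratio at 100 CPM or more. PCR and pooling of mice are not covered by these intervals.

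The members and lists were chosen with earlier results of these data known. Named genes were the 9 members, up to 4 genes per list with the highest level in any of 10 bins, and the 5 genes most correlated with each sum over 20 bins on log2(CPM + 10). Gene positions are from GENCODE vM21. Alternatives changed the hashtag rule, barcode filter, depth, weighting, bins, graph genes and cell set. Scripts were tested on simulated data.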

Additional observations from a re-analysis of the deposited data

Results flagged for a closer look

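Among barcodes with both hashtags, which entered no comparison, Camp was at 1435 CPM (1328 to 1548), above the 1116 of sham. It was picked out as a signal in barcodes that the comparisons left out. Of the 670 Camp UMIs in these 78 barcodes, 254 were in 1 stromal-like barcode that also had 445 UMIs of Lcn2, 3 of Ngp and 1320 of Dcn. The other 4 secondary genes were at 4713 (Ngp), 2657 (Lcn2), 927 (Ltf) and 47.1 (Chil3) CPM, each below its level in sham. The intervals of Lcn2 and Ltf overlapped those of sham, and those of Ngp and Chil3 did not. No explanation was tested.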

How the results depend on the processing

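Every ratio of OVX to sham that could be formed, for each member and both sums, stayed below 1 under the alternatives run over all or neutrophil-type barcodes. For the primary genes most of these settings kept the sham barcode with 144 of the 208 primary UMIs, so they are not separate evidence. The main interval of Mpo (0.0214 to 1.04) included 1, and thinned Ctsg gave no ratio. The primary sum (0.0691) was 0.257 with equal weight per barcode, 0.295 at 1000 UMIs per barcode and 0.172 without the top barcode of each condition. The secondary sum (0.741) was 0.697 with equal weight, 0.751 with the hashtag share rule, 0.694 at 1000 UMIs, 0.604 in neutrophil-type clusters and 0.586 in those at 1% S100 or more, a choice made after seeing the data. At equal stage mix the primary sum (0.104) was 0.330 with equal weight, and the secondary sum (0.863) was 0.839 with 5 bins, 0.785 with the hashtag share rule, 0.744 with equal weight, 0.791 with OVX weights and 0.830 at 1% S100 or more. For the maturation order, 4 of 10 pairs of secondary genes kept their order when thinned to 1000 UMIs, and 10 of 10 with the root cell from the unthinned counts, also a choice made after seeing the data. The cause of the other shifts was not tested. A minimum of 100 CPM left no primary gene and was not run for that sum. Single secondary genes ranged from 0.476 (Chil3) to 0.882 (Lcn2). Depth limits the primary genes, with 64 UMIs outside 1 barcode, and Camp, Ltf and Chil3 in the last bins. No paired analysis was possible because each condition is 1 pool with no replicate number.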
